A study of Homo sapiens with 2 samples.

Results

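The AP-1 and EGR immediate early genes were examined at day 4 of the hematopoietic differentiation of H1 cells. The group was fixed by name as 10 genes: FOS, FOSB, FOSL1 and FOSL2 of the FOS family, JUN, JUNB and JUND of the JUN family, EGR1 and EGR2, and IER2. All 10 were found, by their NCBI Gene number, among the 17397 genes listed. RNA-Seq was available from 1 library of wild-type (WT) cells and 1 library of MEIS2-/- cells. H1 is an established human embryonic stem cell line, and both cultures were treated for 2 days with activin A (50 ng/ml) plus BMP4 (40 ng/ml), followed by 2 days with VEGF (40 ng/ml) plus bFGF (50 ng/ml). The MEIS2-/- cells derive from a single-cell colony picked after lentiviral CRISPR/Cas9 targeting and puromycin selection. Which homozygous clone was sequenced is not given in the sources used here, nor whether the WT cells carried a control vector.

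Immediate early genes are switched on within minutes of a stimulus, without new protein synthesis, and most of their mRNAs are short-lived. Growth factors such as VEGF and bFGF act through the RAS, RAF, MEK and ERK kinases on ternary complex factors bound next to the serum response factor SRF, and serum, stress or cell detachment can also induce them. FOS and JUN proteins pair through leucine zippers to form AP-1, a transcription factor that binds short palindromic sites, whereas EGR proteins are zinc finger factors of GC-rich sites. During blood development these factors relay signals in endothelium and in early blood cells.

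The 250 bases before the annotated start are shown for FOS, JUN and JUNB, the members whose MEIS2-/- level was lower by 2-fold or more, and for EGR1, the member whose values were closest to each other among those above 1 FPKM. The windows are chr14:75278578-75278827 (FOS, plus strand), chr1:58784048-58784297 (JUN, minus strand), chr19:12791236-12791485 (JUNB, plus strand) and chr5:138465229-138465478 (EGR1, plus strand), from RefSeq on GRCh38.p14. Each is read 5′ to 3′ on the strand of the gene, and capitals mark matches to the searched motifs, on either strand.
FOS: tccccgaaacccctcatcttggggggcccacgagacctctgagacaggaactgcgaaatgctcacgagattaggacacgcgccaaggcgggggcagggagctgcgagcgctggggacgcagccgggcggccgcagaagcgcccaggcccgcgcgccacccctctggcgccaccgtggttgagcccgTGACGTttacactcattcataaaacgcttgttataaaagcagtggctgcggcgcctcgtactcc
JUN: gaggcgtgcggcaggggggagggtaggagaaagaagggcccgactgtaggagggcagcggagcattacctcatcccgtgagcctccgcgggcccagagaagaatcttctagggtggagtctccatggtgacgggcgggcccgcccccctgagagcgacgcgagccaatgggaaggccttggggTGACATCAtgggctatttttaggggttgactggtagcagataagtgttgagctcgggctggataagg
JUNB: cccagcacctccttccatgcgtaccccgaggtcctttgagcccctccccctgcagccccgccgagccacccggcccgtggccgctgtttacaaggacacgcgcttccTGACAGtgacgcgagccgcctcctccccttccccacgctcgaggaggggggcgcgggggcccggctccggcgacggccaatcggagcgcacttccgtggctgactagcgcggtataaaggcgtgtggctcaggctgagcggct
EGR1: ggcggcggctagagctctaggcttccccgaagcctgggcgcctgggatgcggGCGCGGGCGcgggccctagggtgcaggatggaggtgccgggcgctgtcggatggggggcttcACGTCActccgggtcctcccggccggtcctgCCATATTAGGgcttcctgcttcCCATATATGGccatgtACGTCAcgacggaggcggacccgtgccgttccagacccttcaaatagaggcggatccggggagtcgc

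The motifs were searched on both strands, and a match describes letters, not binding. Only the 250 bases before each start were searched. A motif farther upstream or after the start would be missed, so a window without a CArG box does not mean a gene without one. They were the CArG box that SRF recognises, the AP-1 site TGANTCA, the 8-letter site TGACNTCA of CREB, ATF and JUN dimers, its shorter core TGACGT, which overlaps it, the EGR site GCGNGGGCG and the MEIS site TGACAG. RefSeq windows were found for 9 of the 10 members, all but FOSL1, with 3 windows for EGR2. A member was counted if any of its windows matched, whereas the shares given beside are of single windows. The EGR1 window holds CArG boxes 105 to 96 and 83 to 74 bases before the start, and the only other member with this motif was EGR2, against 1.16% of all 35116 windows of this length. TGACGT was present in 6 members (FOS, FOSB, FOSL2, JUND, EGR1 and EGR2) and in 7.10% of all windows. The FOS window holds it 64 to 59 bases before the start. JUN and JUND hold TGACNTCA, which 6.87% of all windows hold. TGANTCA was found in none of the members' windows and in 6.57% of all windows. GCGNGGGCG was found in EGR1 and in 8.41% of all windows, and TGACAG in JUNB, 143 to 138 bases before its start, and in 13.0% of all windows. The members that were at least 2-fold lower thus share no searched motif in these windows.

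Expression was given as FPKM, the fragments of a gene scaled by transcript length and by the total mapped, so levels can be set side by side between genes. Fold changes are log2 ratios of MEIS2-/- to WT with 0.1 FPKM added on both sides, a scale that shrinks the differences of low genes. As each genotype had 1 library, differences could not be checked against replicates or tested, and a difference of 2-fold or more is counted only as a size. The depth of the libraries is unknown, because only FPKM were given. Their low values showed no whole-read steps, but rounding to 2 decimals can hide such steps, so their absence says little. MEIS2, the targeted gene, was at 10.85 FPKM in the WT library against 3.44 FPKM in the MEIS2-/- library. Summed FPKM was 447542 in WT cells and 440651 in MEIS2-/- cells.

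The AP-1 genes were lower in MEIS2-/- cells, most of all FOS, and EGR1 was nearly level. With 0.1 FPKM added to both values, FOS was 5.65-fold lower, JUN 2.34-fold and JUNB 2.21-fold. JUND, at 1.93-fold lower, lay just short of 2-fold. In bulk RNA, fewer cells expressing a gene and less mRNA per cell cannot be told apart.

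**Figure D1:**
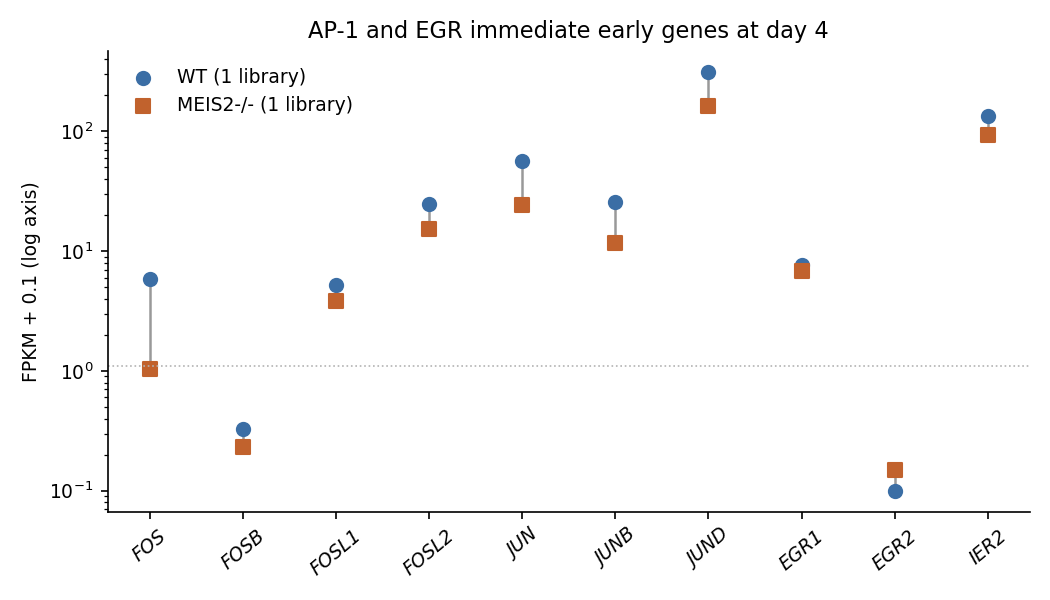
FPKM of each member plus 0.1, on a log axis, in the WT library (circles) and the MEIS2-/- library (squares); the dotted line marks 1 FPKM. The WT value lies above the MEIS2-/- value for 9 of the 10 genes, and EGR2, at 0 and 0.05 FPKM, is near the floor in both.

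FOS encodes the founding AP-1 partner of JUN and is among the most sharply induced immediate early genes. It was at 5.78 FPKM in the WT library against 0.94 FPKM in the MEIS2-/- library (log2 fold change -2.50). Without the added 0.1 FPKM, FOS thus kept 16.3% of its WT level, and it went from rank 8138 to rank 12621 of the 17397 genes. Of the genes compared, 0.956% had a lower log2 fold change. With 1 FPKM added in place of 0.1 FPKM the value of FOS was -1.81.

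The other FOS family members differed less. FOSL2, which encodes the more stably expressed factor FRA2, was at 24.85 FPKM in the WT library against 15.28 FPKM in the MEIS2-/- library (log2 fold change -0.70). FOSL1, which encodes FRA1, was at 5.14 FPKM and 3.77 FPKM (log2 fold change -0.44). In both libraries FOSL2 was the most abundant FOS family mRNA. FOSB was at 0.23 FPKM in the WT library against 0.13 FPKM in the MEIS2-/- library, too low in both for a fold change to be given.

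All of the JUN family was lower by about the same factor. JUN was at 56.46 FPKM in the WT library against 24.11 FPKM in the MEIS2-/- library (log2 fold change -1.22). JUNB, which often counteracts JUN, was at 25.52 FPKM and 11.49 FPKM (log2 fold change -1.14). JUND, known for steady expression rather than induction, was at 314.52 FPKM and 162.96 FPKM (log2 fold change -0.95). JUND was the highest of the 10 genes in both libraries, above 98.9% of all genes in WT cells and 97.7% in MEIS2-/- cells. JUN was 2.21 times JUNB in WT cells and 2.10 times JUNB in MEIS2-/- cells, a ratio within each library that does not depend on library scaling.

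The summed FPKM of the FOS and JUN families was 432.5 in WT cells and 218.68 in MEIS2-/- cells, so the MEIS2-/- library held 50.6% of the WT sum. Its makeup was dominated by JUND, which held 72.7% of it with WT and 74.5% with MEIS2-/-. The whole JUN family held 91.7% and 90.8%. FOS itself went from 1.34% of the sum to 0.430%. The ratio of JUN to FOS was 9.77 in WT cells and 25.6 in MEIS2-/- cells, and that of FOSL2 to FOS was 4.30 and 16.3.

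EGR1, a zinc finger factor that responds to many of the signals that induce FOS, was at 7.55 FPKM in the WT library against 6.73 FPKM in the MEIS2-/- library (log2 fold change -0.16). It kept 89.1% of its WT level, and the ratio of EGR1 to FOS was 1.31 in WT cells and 7.16 in MEIS2-/- cells. EGR2, a relative of EGR1 best known from hindbrain and Schwann cells, was listed at 0 in WT cells and at 0.05 FPKM in MEIS2-/- cells. IER2, a small nuclear protein induced with FOS and JUN, was at 133.38 FPKM in the WT library against 92.41 FPKM in the MEIS2-/- library (log2 fold change -0.53). It was the second highest of the 10 genes in both libraries.

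Fold changes were set beside those of the 13075 genes that reached 1 FPKM in either library. Of the 10 members, 8 passed this filter and FOSB and EGR2 did not. FOS passed it only through its WT value, which by itself favours a lower value in the other library. Of the 8, 3 were at least 2-fold lower, against 7.97% of all genes compared. None of the 8 was at least 2-fold higher, against 7.84% of all genes. All 8 had lower FPKM in MEIS2-/- cells, which was so for 40.6% of all genes. Their median log2 fold change was -0.82, and that of all genes compared was 0.12. The log2 fold changes ran from -2.50 for FOS to -0.16 for EGR1. The 0.12 of all genes is a shift that rescaling removes, and rescaled to a median of 0 the JUND value became -1.06, past 2-fold.

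**Figure D2:**
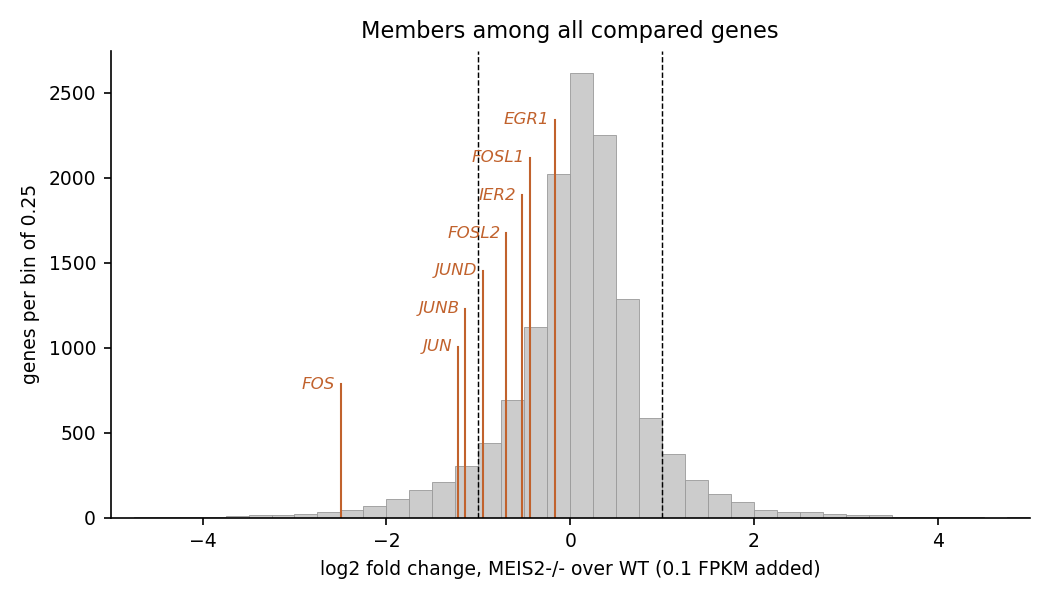
Histogram of log2 fold changes, MEIS2-/- over WT, of the 13075 genes compared, with the 8 members above the filter as labelled lines of arbitrary height; dashed lines mark 2-fold. FOS, JUN and JUNB lie beyond the lower dashed line, and EGR1 at -0.16 lies in the bulk of genes.

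GC content moved with the fold changes. Among genes grouped in 10 equal classes by the GC content of their transcripts, the share that was 2-fold or more lower in the MEIS2-/- library ran from 2.65% in the second lowest class to 20.0% in the highest. JUNB, JUND and IER2 lie in the highest class, with 64.9%, 69.7% and 62.9% GC. The median of this class was -0.12 on the log2 scale, and 17.2% of its genes had a lower value than JUNB and 20.3% a lower value than JUND. FOS, with 52.6% GC, lies in a class of which 5.76% were at least 2-fold lower and 0.701% had a lower value than FOS. JUN, with 56.7% GC, lies in a class of which 9.43% had a lower value. After each value was centred on the median of its GC class, FOS was at -2.65, JUN at -1.31, JUNB at -1.02, JUND at -0.83 and EGR1 at -0.25. The part of GC content in the values beyond this centring was not tested.

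**Figure D3:**
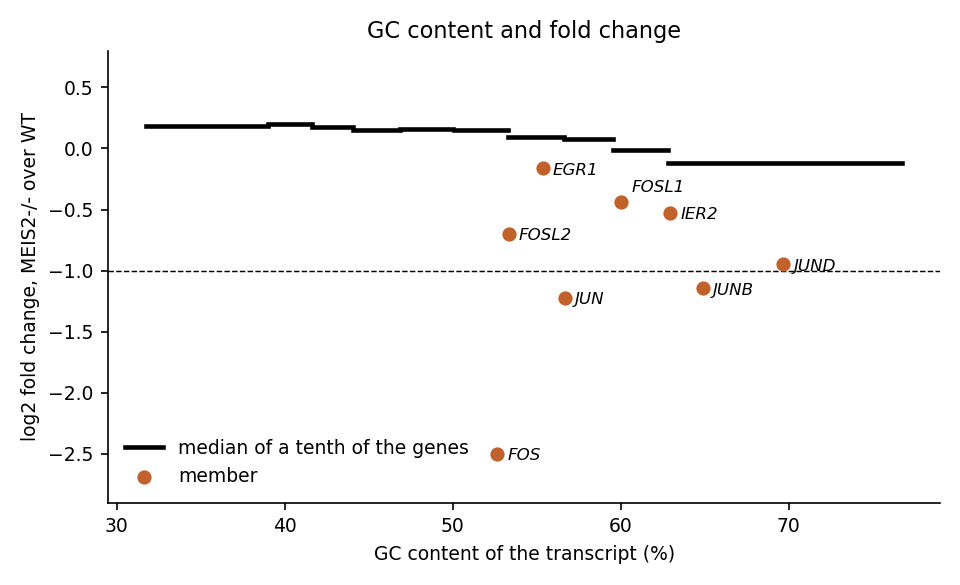
Log2 fold change, MEIS2-/- over WT, against the GC content of the transcript for the 8 members above the filter (points), with the median of each of 10 GC classes of all genes as a bar spanning the class; the dashed line marks 2-fold lower. The class medians decline to -0.12 in the highest class, and FOS lies farthest from its class median, at -2.50.

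Of 14 other genes whose proteins can pair with FOS or JUN or belong to the same zipper class, 10 were compared, 8 of them lower and 2 higher. Their median log2 fold change was -0.43. None was at least 2-fold lower, against 7.97% of all genes compared, and 1 was at least 2-fold higher, against 7.84%. MAFF, a small MAF protein without an activation domain, was at 13.71 FPKM and 7.52 FPKM, and MAFK, another, at 14.39 FPKM and 7.94 FPKM. MAF was at 3.28 FPKM in the WT library against 5.71 FPKM in the MEIS2-/- library. ATF3, a stress-induced repressor, was at 14.28 FPKM and 9.49 FPKM (log2 fold change -0.58).

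Among EGR relatives and the NAB corepressors that restrain EGR proteins, 2 of 4 genes were compared. NAB2 was at 42.45 FPKM in the WT library against 26.38 FPKM in the MEIS2-/- library (log2 fold change -0.68). NAB1 was at 10.47 FPKM and 11.95 FPKM (log2 fold change 0.19). EGR3 was at 0.25 FPKM and 0.11 FPKM, and EGR4 was listed at 0 in both libraries.

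Other immediate early genes leaned the same way as the AP-1 genes. Of 39 such genes, which include ATF3 and MAFF, 35 were compared, 29 of them lower and 6 higher, with a median log2 fold change of -0.79. At least 2-fold lower were 10, against 7.97% of all genes compared, and at least 2-fold higher 3, against 7.84%. KLF2, a factor induced by flow in endothelium, had the largest difference downward, from 34.51 FPKM with WT to 6.49 FPKM with MEIS2-/- (log2 fold change -2.39). ZFP36, which encodes the mRNA-destabilising protein tristetraprolin, was at 33.78 FPKM and 9.38 FPKM (log2 fold change -1.84).

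MYC was at 54.12 FPKM in the WT library against 20.22 FPKM in the MEIS2-/- library (log2 fold change -1.42). The orphan nuclear receptor gene NR4A1 was at 41.88 FPKM and 17.45 FPKM (log2 fold change -1.26). IER3, a regulator of apoptosis, was at 82.86 FPKM and 43.79 FPKM (log2 fold change -0.92). The matricellular gene CCN1, at 44.72 FPKM and 30.88 FPKM, had a log2 fold change of -0.53. The 3 genes that were at least 2-fold higher were KLF4, at 7.26 FPKM in the WT library against 37.37 FPKM in the MEIS2-/- library, the kinase gene SIK1, at 2.84 FPKM and 9.39 FPKM, and the kinase gene SGK1, at 13.03 FPKM and 31.73 FPKM. KLF4 is also a factor of pluripotent cells.

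Upstream of the immediate early genes, the levels of the signal carriers were closer together. Of 13 genes of the ERK cascade, 8 were higher and 5 lower, with a median log2 fold change of 0.06, and only RPS6KA2, at 3.80 FPKM in the WT library against 8.93 FPKM in the MEIS2-/- library, was past 2-fold. MAP2K1, which encodes the ERK-activating kinase MEK1, was at 44.98 FPKM and 25.49 FPKM. Of 9 genes for SRF, its partners and CREB factors, none was past 2-fold and the median was -0.09. SRF was at 20.62 FPKM in the WT library against 27.56 FPKM in the MEIS2-/- library (log2 fold change 0.42). ELK3, a ternary complex factor expressed in endothelium, was at 22.97 FPKM and 13.21 FPKM. Of 11 genes of the JNK and p38 cascades, 10 were compared, with a median of -0.04, and 1, MAPK11, was at least 2-fold lower. Of all genes compared, 7.97% were at least 2-fold lower and 7.84% at least 2-fold higher. mRNA levels do not report kinase activity.

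Genes listed as ERK feedback, many of them induced by ERK signalling and most, but not all, restraining it, were more often lower than higher. All 15 were compared, 11 lower and 4 higher, with a median log2 fold change of -0.51. At least 2-fold lower were 4, namely DUSP6, DUSP5, DUSP10 and SPRY1, against 7.97% of all genes compared. No gene of this list was at least 2-fold higher, against 7.84%. DUSP6, the cytoplasmic ERK phosphatase, was at 116.80 FPKM in the WT library against 33.39 FPKM in the MEIS2-/- library (log2 fold change -1.80). DUSP5, the nuclear ERK phosphatase, was at 57.61 FPKM and 20.98 FPKM (log2 fold change -1.45). DUSP1, itself an immediate early gene, was at 13.58 FPKM and 9.82 FPKM. ETV4 and ETV5, transcription factors induced by FGF, were higher, at 50.04 FPKM in the WT library against 81.12 FPKM in the MEIS2-/- library and at 11.78 FPKM and 17.79 FPKM.

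**Figure D4:**
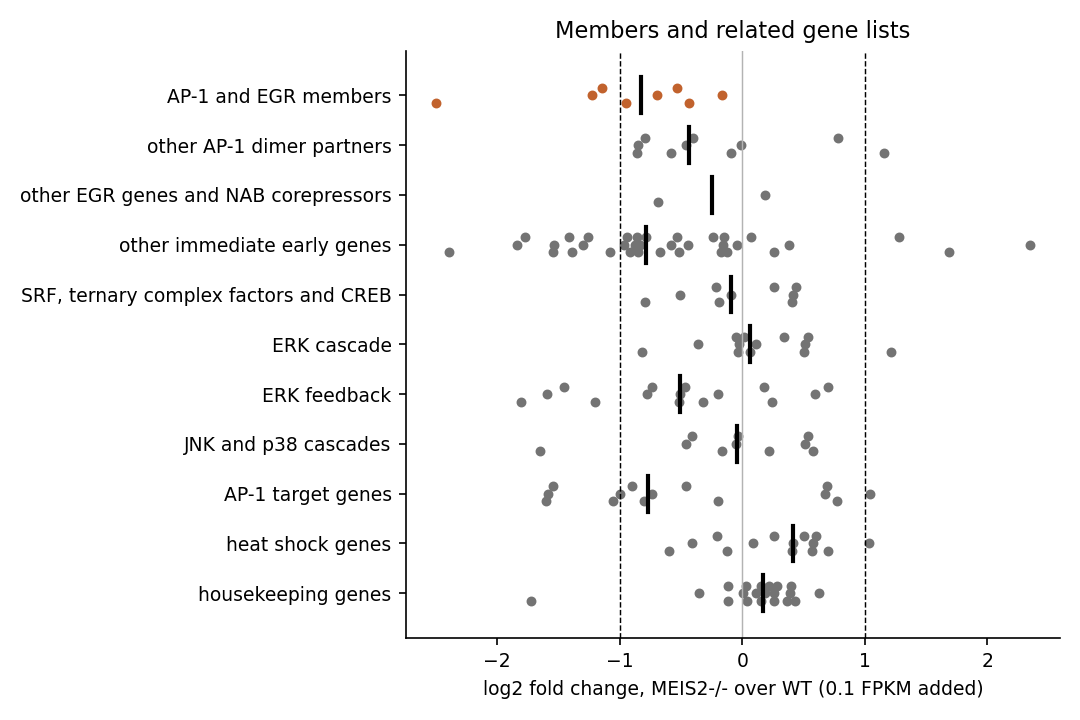
Log2 fold change, MEIS2-/- over WT, of each gene compared in the AP-1 and EGR group and in 10 related lists, 1 point per gene, with the list median as a black bar and dashed lines at 2-fold. The medians of the members (-0.82), of other immediate early genes (-0.79) and of AP-1 target genes (-0.77) lie lowest, and that of heat shock genes (0.41) highest.

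Of 18 genes known as AP-1 targets in other cells, 17 were in the tables and CXCL8 was not analysed here. Among the 14 compared, 10 were lower and 4 higher, with a median log2 fold change of -0.77. At least 2-fold lower were 5, namely IL11, VIM, TGFB1, PLAU and CD44, against 7.97% of all genes compared. At least 2-fold higher was 1, EZR, against 7.84%. The intermediate filament gene VIM was at 3048.28 FPKM in the WT library against 1014.25 FPKM in the MEIS2-/- library (log2 fold change -1.59). The cytokine gene IL11 was at 11.29 FPKM and 3.66 FPKM (log2 fold change -1.60). EZR, which links membrane to actin, was at 85.25 FPKM and 175.28 FPKM (log2 fold change 1.04). HMOX1, which degrades heme, was at 18.78 FPKM and 32.21 FPKM. The matrix metalloproteinase genes MMP1, MMP3 and MMP10 were below 1 FPKM in both libraries.

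Immediate early genes also respond to how cultures are handled, so heat shock genes were read beside them. Of 15, 14 were compared, 10 of them higher and 4 lower in MEIS2-/- cells, with a median log2 fold change of 0.41, where 40.6% of all genes compared were lower. HSPH1 was the 1 gene past 2-fold, at 7 FPKM in the WT library against 14.43 FPKM in the MEIS2-/- library. HSPA1A, whose reads can be shared with its near-identical copy HSPA1B, was at 33.11 FPKM and 21.88 FPKM. Of 20 housekeeping genes, all compared, 16 were higher and 4 lower, with a median of 0.17. The glycolysis gene GPI was the 1 at least 2-fold lower. The shares of all genes compared were 7.97% at least 2-fold lower and 7.84% at least 2-fold higher. The part of culture handling in the levels of the AP-1 genes was not tested.

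Markers of several cell types also differed between the libraries. All 7 endothelium markers were lower with MEIS2-/-, 4 by 2-fold or more, against 7.97% of all genes compared. Their summed FPKM was 393.45 in WT cells and 92.07 in MEIS2-/- cells. Most of this sum was KDR, which encodes a VEGF receptor, at 323.77 FPKM and 61.98 FPKM. Of 6 blood cell markers, 3 were compared and all 3 were lower. The summed FPKM of all 6 was 8.84 and 5.22. Those not compared were below 1 FPKM in both libraries and did not all go the same way. PTPRC was at 0.45 FPKM in the WT library against 0.89 FPKM in the MEIS2-/- library. RUNX1 was at 0.71 FPKM and 0.87 FPKM, and SPI1 at 0.48 FPKM and 0.15 FPKM. Of 5 pluripotent cell markers, 4 were compared and all 4 were higher. The summed FPKM of the list was 349.62 and 1626.97, most of it POU5F1, at 285.65 FPKM and 1454.14 FPKM. SOX2, the marker not compared, was at 0.09 FPKM in the WT library against 0.15 FPKM in the MEIS2-/- library, near the floor in both. All 6 endoderm markers were higher, at 592.55 and 1230.58 in sum. The 5 mesoderm markers, 2 higher and 3 lower, summed to 605.32 FPKM in the WT library against 429.24 FPKM in the MEIS2-/- library. Most of this sum was HAND1, at 357.53 FPKM and 265.24 FPKM. The 2 higher were TBXT, at 2.44 FPKM and 10.74 FPKM, and MIXL1, at 2.33 FPKM and 6.47 FPKM. Both were at least 2-fold higher, against 7.84% of all genes compared. None of the 3 lower was lower by 2-fold or more, against 7.97%. Of 3 neuroectoderm markers, 1 was compared and was lower. No marker in the tables was at 0 in either library. The part of these differences in the levels of the AP-1 and EGR genes was not tested, and with 1 culture per genotype the genotype and the culture cannot be told apart.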

How the data were processed

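RNA-Seq was performed on 1 WT and 1 MEIS2-/- library (Trizol extraction, Illumina TruSeq RNA preparation). The authors deposited FPKM per gene, rounded to 2 decimals; the submitters' processing notes name BWA, Bowtie, RSEM and hg19, without roles or versions. NCBI Gene numbers were matched to RefSeq symbols for 17365 of 17397 genes. Agreement of low values with whole-read steps (1 is complete) was at most 0.105 in WT and 0.158 in MEIS2-/- cells. Full transcript lengths were used for it, and the rounding of the values limits what it can find.

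Log2 ratios used a pseudocount of 0.1 FPKM, the comparison a filter of 1 FPKM in at least 1 library, and the count a 2-fold threshold. GC content came from GENCODE 29 transcripts paired with the listed RefSeq transcripts (98.1% of the genes compared). Alternatives were pseudocounts of 1 and 0.01 FPKM, no filter or 5 FPKM, counting at 1.5-fold or 4-fold, scaling so that the median log2 ratio is 0, TMM (trimmed mean of log ratios, 30% of ratios and 5% of means trimmed per side), and centring by GC class, added after the values were seen. The fold changes, their counts and both scalings were tested on a copy of the WT values with planted changes and no added noise.

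The members and lists were chosen with earlier results of these data known. Genes named were all members, MEIS2, 11 related genes fixed by name, and per list the 2 largest rises and falls at 5 FPKM or more. SGK1, DUSP10, SPRY1, MAPK11, CD44, PLAU, TGFB1, MMP1, MMP3, MMP10, EGR4, HSPA1B, SOX2, PTPRC, RUNX1, SPI1 and HAND1 were named after their values were seen. The values of 1 gene of the related lists are not reported here. Python 3.11.15, numpy 2.4.6, pandas 2.3.3 and matplotlib 3.10.9 were used.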

Additional observations from a re-analysis of the deposited data

How the results depend on the processing

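The number of members at least 2-fold lower in MEIS2-/- cells, 3 of 8, became 5 at a threshold of 1.5-fold (FOS, JUN, JUNB, JUND and FOSL2) and 1 at 4-fold (FOS). Either rescaling made it 4, with JUND at -1.06 (median) and -1.05 (TMM), while the share of all genes at least 2-fold lower went from 7.97% to 9.20% and 9.06%. It was 3 with the other pseudocounts, filters and GC centring. No member was at least 2-fold higher under any of the 9 settings. The median log2 fold change ran from -0.94 with median rescaling to -0.61 without a filter, over 10 members. The lowest and highest values of FOS were -2.65, with GC centring, and -1.81, with a pseudocount of 1 FPKM, and none of the 8 members above the filter changed direction. Over all genes compared, a pseudocount of 1 FPKM gave 623 higher and 693 lower against 1025 and 1042, a filter at 5 FPKM 554 and 598, no filter 1567 and 1516, 1.5-fold 2353 and 1890, and 4-fold 194 and 241. Scaling tipped the near-even counts toward lower, with 815 higher and 1197 lower (median), 837 and 1179 (TMM), and 821 and 1149 (GC centring). No paired analysis was possible because each genotype has 1 library. Depth is unknown, so no counting error can be given for low values such as the 0.94 FPKM of FOS.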

Other observations

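JUN, JUNB and JUND have a single exon in the annotation used here, whereas FOS has 4 exons and EGR1 has 2. Of the 321 genes with 1 exon that were compared, 12.8% were lower by 2-fold or more in the MEIS2-/- library and 14.3% were higher by as much, with a median log2 fold change of 0.09. Of the 12512 genes with 2 or more exons, 7.87% were at least 2-fold lower and 7.62% at least 2-fold higher, with a median of 0.12.

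Large ratios were more frequent among low genes. When the genes compared were ordered by mean level in 10 equal classes, FOS fell in the second lowest, of which 10.7% were at least 2-fold lower, JUNB in a class with 5.59%, and JUN in one with 5.13%. JUND and IER2 were in the highest class, of which 4.89% were at least 2-fold lower.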
